A study of Mus musculus with 4 samples.

Results

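The effect of poly I:C on tumour immune cells was followed in 4 single-cell RNA libraries from breast tumours grown from the MT4788 cell line in wild-type FVB mice. The control library came from mice given saline and PBS, the phenformin library from saline and phenformin, the poly I:C library from poly I:C and PBS, and the combination library from poly I:C and phenformin. Poly I:C was therefore compared with saline in 2 pairs that share no library: poly I:C over control, without phenformin, and combination over phenformin, with phenformin in both members of the pair. All tumours were orthotopic and syngeneic and were taken on day 4, and the dissociated cells were enriched for CD45 on magnetic beads. The cells compared were those with at least 200 genes, under 20% mitochondrial UMIs and at least 1 UMI of Ptprc, which encodes CD45. They numbered 5117 in control, 4699 in phenformin, 5345 in poly I:C and 6698 in combination, or 21859 of the 30819 barcodes of the series. The series' design counts 4 tumours for the 4 conditions, so each treatment had 1 library, and differences between tumours cannot be told apart from the treatments.

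Poly I:C, a synthetic analogue of double-stranded viral RNA, is sensed in endosomes by Toll-like receptor 3 (Tlr3) and in the cytosol by the helicases MDA5 (Ifih1) and RIG-I (Ddx58), which signal through interferon regulatory factors and NF-kB to type I interferons, chemokines and inflammatory cytokines. Interferons then switch on a large set of stimulated genes through the interferon-stimulated response element. Phenformin belongs to the biguanides, which block respiratory complex I in mitochondria. Tumour macrophages can take up an alternative, IL-4-type state marked by Ccl17, Ccl22, Ccl24, Mgl2, Arg1 and Retnla.

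The summed Ptprc-positive cells held between 44603549 and 55818778 UMIs per library, with medians of 6389.5 to 8687 UMIs per cell. Values are UMIs divided by that sum and scaled to a total of 1e+06 (CPM), and 9329 genes with a mean of at least 5 CPM were tested. Of the cells that passed the quality filter, 80.8% to 86.2% had a Ptprc UMI. The libraries shared between 11 and 29 cell barcodes per pair. Ptprc itself stood at 842 CPM in control, 700 in phenformin, 593 in poly I:C and 712 in combination. The Ptprc-positive cells still held tumour epithelial-like cells (37 to 109 per library) and fibroblast-like cells (5 to 23 per library), so not all of them are leukocytes. In sums over cells, fewer cells of a type and less RNA per cell cannot be told apart. Cells that held both T cell and macrophage RNA, with at least 3 UMIs of the Cd3 genes and at least 3 of the C1q genes, made up 2.13% of control, 2.64% of phenformin, 5.93% of poly I:C and 6.63% of combination, so they were more frequent in both poly I:C-treated libraries. They were kept.

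With poly I:C, the transcripts that were higher in both pairs were led by the chemokine gene Ccl5, macrophage genes (the C1q genes, Ms4a7, Apoe, Tmem119, Acp5) and collagen genes, together with Irf7. Those that were lower in both pairs were led by the chemokine genes Ccl24, Ccl17 and Ccl22, the lectin gene Mgl2, the lysozyme gene Lyz1 and a group of monocyte, dendritic cell and NF-kB-linked genes (Thbs1, Plbd1, Cd83, Tnip3). By the rule of at least 1.5-fold in the same direction in both pairs, each with a 95% interval that leaves out 1, 107 genes were higher (1.15% of those tested) and 116 were lower (1.24%). At 2-fold in both pairs 21 were higher (0.225%) and 19 lower (0.204%). In opposite directions 43 genes passed the same limits, 6 of them higher without and lower with phenformin (0.0643%) and 37 lower without and higher with it (0.397%). The log2 ratio had the same sign in both pairs for 62.0% of the genes tested, and its median was −0.11 without and 0.01 with phenformin.

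In edgeR's quasi-likelihood test of poly I:C, with phenformin as a second term, 33 genes passed a Benjamini-Hochberg adjusted p of 0.05 (0.354% of those tested), 14 higher (0.15%) and 19 lower (0.204%), and 1294 had an unadjusted p under 0.05. All 33 had the same sign in both pairs. The test favours this, because its residual spread comes from the difference between the pairs, so it is no separate support. This fit has 1 residual degree of freedom, and its calls are fragile: none remained with TMM scaling, which shifts the median log2 ratio of the pair without phenformin to −0.01, and none remained without the control library or without the combination library. Without phenformin 1 was called and without poly I:C 27. Among genes at least 1.5-fold in both pairs, TMM scaling gave 219 (132 higher, 87 lower) against 223 (107 and 116). The verbs "rose" and "fell" below are kept for genes that passed the test.

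**Figure D1:**
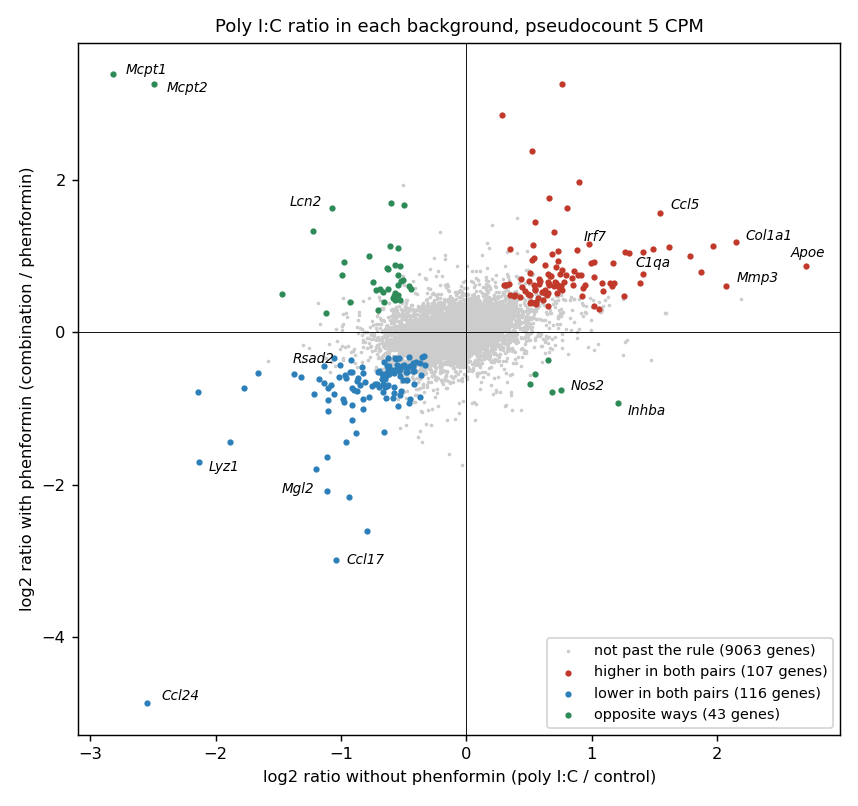
Log2 CPM ratio of poly I:C over control (horizontal axis) against combination over phenformin (vertical axis), 1 point per gene tested, with 5 CPM added to each value. Red and blue points are the 107 genes higher and the 116 genes lower in both pairs, and green points the 43 that moved in opposite directions; Ccl24 lies far below all other genes.

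Ccl5, a chemokine that attracts T cells and monocytes, stood at 787 CPM in control, 1083 in phenformin, 2305 in poly I:C and 3221 in combination. Both poly I:C-treated libraries lay above both saline libraries. It rose 2.93-fold (95% interval 2.90 to 2.96) without and 2.97-fold (2.95 to 3.003) with phenformin, with an adjusted p of 0.0106 in edgeR's quasi-likelihood test, and it is encoded on chromosome 11 (83525778 to 83530518, GRCm38). Within cell classes Ccl5 was higher in both pairs in T or NK-like cells (1444, 2095, 5007 and 3873 CPM in control, phenformin, poly I:C and combination) and in monocyte or macrophage-like cells (584, 855, 1572 and 3377 CPM). In dendritic-like cells the ratio was 1.28 without and 5.49 with phenformin. The order of the poly I:C-treated libraries thus differed by class: Ccl5 was highest in poly I:C in T or NK-like cells and highest in combination in monocyte or macrophage-like cells.

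The 3 genes of the C1q complex, which starts the classical complement pathway and is made in tumours mostly by macrophages, rose together. C1qa stood at 1299 CPM in control, 1702 in phenformin, 3132 in poly I:C and 3536 in combination, a 2.41-fold rise without and a 2.08-fold rise with phenformin (adjusted p = 0.0352, edgeR's quasi-likelihood test). C1qb rose 2.67-fold and 2.08-fold, and C1qc 1.998-fold and 1.88-fold. The genes lie side by side on chromosome 4 (C1qb at 136880129 to 136886187, C1qc at 136889804 to 136893065 and C1qa at 136895917 to 136898803). Within monocyte or macrophage-like cells C1qa was at 3005, 3227, 5305 and 6751 CPM in control, phenformin, poly I:C and combination. Of 16 complement genes tested, 3 were called higher, 4 were at least 1.5-fold higher in both pairs (with Serping1, a C1 inhibitor) and none was 1.5-fold lower. Over all genes tested 0.15% were called higher, and 1.15% were 1.5-fold higher and 1.24% lower in both pairs. The 3 called are the C1q genes given above, so the count is not separate from them.

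Other macrophage genes followed. Ms4a7, a membrane protein of mature macrophages, rose from 190 CPM in control to 592 in poly I:C and from 274 in phenformin to 600.5 in combination. Acp5, a lysosomal acid phosphatase, rose 2.05-fold and 1.92-fold, and Tmem119 rose 2.17-fold and 2.47-fold. Apoe, a lipid carrier secreted by macrophages, stood at 1173 CPM in control, 2540 in phenformin, 7688 in poly I:C and 4655 in combination. The groups did not overlap, but the 6.55-fold ratio without phenformin was far above the 1.83-fold ratio with it, and the gene did not pass the test (adjusted p = 0.117, edgeR's quasi-likelihood test). Trem2, a lipid receptor, was 2.77-fold and 1.605-fold higher, and Ctsd, a lysosomal protease, 1.64-fold and 1.57-fold higher. None of the 24 genes for lipid handling that were tested was called, 3 were 1.5-fold higher and 1 was 1.5-fold lower in both pairs. Over all genes tested 1.15% were higher and 1.24% lower by that rule. The 3 are Apoe, Trem2 and Ctsd, given above.

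The clusters that make up the macrophages differed in share, and not all in 1 direction. Summed over 14 markers of monocytes and macrophages, the level was 7803 CPM in control, 9640 in phenformin, 14990 in poly I:C and 13456 in combination. In both pairs 5 markers were 1.5-fold higher, against 1.15% of all genes tested, and none of the 14 was at 0. The 14 include C1qa, C1qb, C1qc and Ms4a7, which are ranked genes given above, so the sum is not separate from them. Cluster 2 (led by H2-M2, Arg1 and Trem2) made up 6.61%, 9.41%, 15.3% and 10.7% of cells in control, phenformin, poly I:C and combination, and cluster 6 (led by Cd72 and Ms4a7) 1.505%, 1.36%, 1.70% and 5.36%. Cluster 5 was smaller with poly I:C (15.6%, 22.1%, 13.5% and 5.75%), clusters 1 and 8 went opposite ways in the pairs, and the share of the whole class overlapped between the groups. The cell classes, but not the clusters within them, were also given the same weight in every library. With these weights C1qa was 1.86-fold and 2.19-fold, Ms4a7 2.34-fold and 2.30-fold and Apoe 4.998-fold and 1.93-fold higher. Within cluster 2 the ratios of C1qa were smaller, at 1.43 and 1.61, and within cluster 6 they were 1.36 and 1.14. The macrophage transcripts were also higher in classes that should lack them: C1qa went from 37.3 and 42.5 CPM in T or NK-like cells of the saline libraries to 63.8 and 87.7 CPM with poly I:C, and from 189 and 81.6 to 410 and 791 CPM in dendritic-like cells. The part of mixed droplets and free RNA in those values was not tested.

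**Figure D2:**
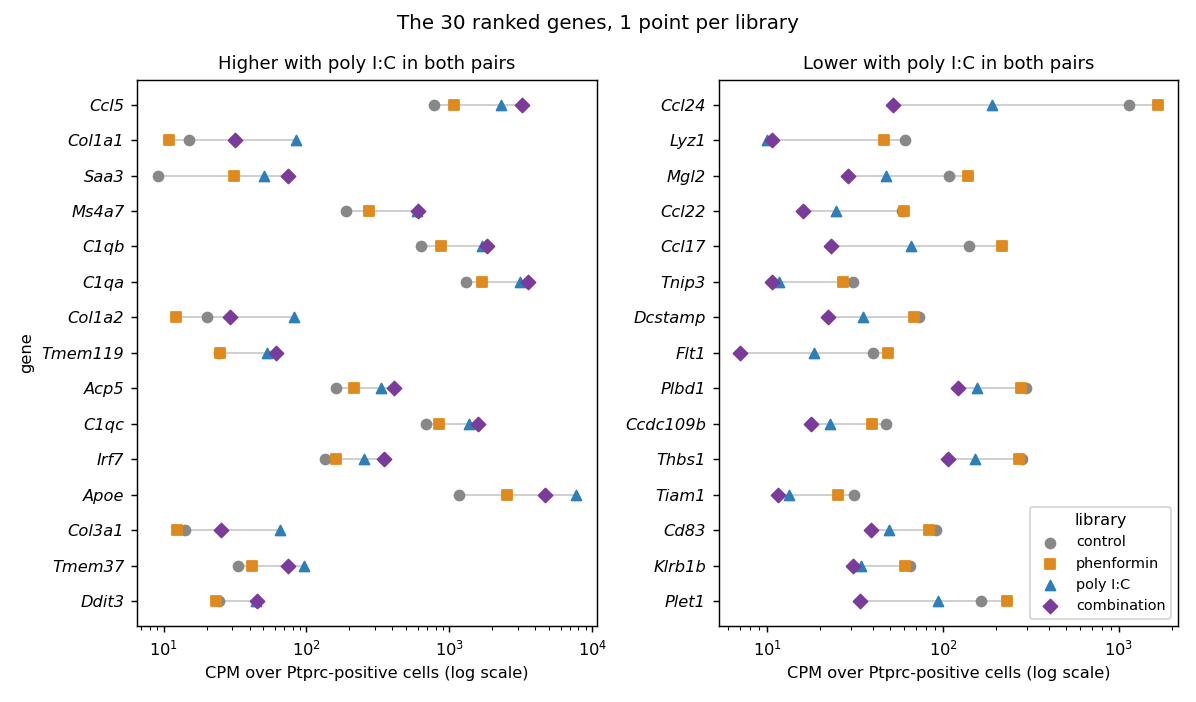
CPM over Ptprc-positive cells (log axis) of the 15 highest and 15 lowest genes by the smaller of their 2 log2 ratios, 1 point per library. For every gene drawn, both poly I:C-treated libraries lie on one side of both saline libraries. The genes were chosen by their ratios in both pairs, which favours this separation. Ccl24 spans the widest range, from 52.1 CPM in combination to 1662 in phenformin.

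Ccl24, an eosinophil-attracting chemokine of alternatively activated macrophages, was the lowest of all ranked genes. It stood at 1142 CPM in control, 1662 in phenformin, 191 in poly I:C and 52.1 in combination, so that it was at 0.167 of the control level without phenformin (95% interval 0.163 to 0.170) and at 0.0313 of the phenformin level with it (0.0302 to 0.0325). It did not pass the test (adjusted p = 0.0538, edgeR's quasi-likelihood test). Most of its UMIs lay in monocyte or macrophage-like cells, where Ccl24 was at 2499, 2886, 292 and 87.2 CPM in control, phenformin, poly I:C and combination. Within cluster 5, which Ccl24 leads, it was at 2751, 3750, 614 and 177 CPM, and within cluster 2 at 4194, 3231, 235 and 155 CPM. In both clusters the poly I:C-treated libraries lay below the saline libraries. In Ptprc-negative cells it was at 151, 196, 7.95 and 5.35 CPM.

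Of 23 alternative activation genes tested, 14 had ratios below 1 in both pairs and 4 above 1 in both. Mgl2, a C-type lectin, stood at 108 CPM in control, 138 in phenformin, 47.1 in poly I:C and 28.6 in combination (adjusted p = 0.0524, edgeR's quasi-likelihood test). Ccl22, a ligand of Ccr4, fell to 0.417 of control and 0.265 of phenformin, from 58.7 and 60.2 CPM to 24.5 and 15.95 CPM. Ccl17, another Ccr4 ligand, was at 141, 217, 65.7 and 23.05 CPM in control, phenformin, poly I:C and combination. Retnla was at 321, 204, 68.9 and 116 CPM, and Cd209d, a lectin, fell to 0.322 and 0.453 of the saline levels. Of the 23 genes, 2 were called lower and none higher, while 8 were 1.5-fold lower and 2 (Folr2 and Cd209f) 1.5-fold higher in both pairs. Over all genes tested 0.204% were called lower and 0.15% higher, and 1.24% were 1.5-fold lower and 1.15% higher. The median log2 ratio of the list was −0.16 without and −0.67 with phenformin, against −0.11 and 0.01 over all genes tested. Within monocyte or macrophage-like cells 8 of 18 were called lower and 2 higher, against 5.31% and 2.93% over all genes of the class. By the 1.5-fold rule 5 were lower and 1 higher, against 1.41% and 0.743%. With TMM scaling no gene of this class was called. Arg1 there was at 528, 598, 258 and 236 CPM in control, phenformin, poly I:C and combination.

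A second set of lower genes marked one cluster. Lyz1, a lysozyme, fell from 61.0 CPM in control and 45.9 in phenformin to 10.0 in poly I:C and 10.6 in combination (adjusted p = 0.0106, edgeR's quasi-likelihood test); it is near-identical to Lyz2, which stood at 2384, 3016, 4744 and 3081 CPM, so how reads were divided between them is uncertain. Dcstamp, a fusion protein of osteoclasts and dendritic cells, fell to 0.481 and 0.321, Ccdc109b to 0.482 and 0.454 of the saline levels, and Plet1 was at 165, 230.5, 93.3 and 33.6 CPM. All 4 genes are among the 10 leading genes of cluster 7, left unnamed because too few of the fixed markers were high in it. Ccl17, Retnla and Ear2 of the alternative activation list are among these 10 as well, so the 2 sets share this cluster. Cluster 7 made up 6.84% of control cells (95% interval 6.16 to 7.57), 4.98% of phenformin, 1.48% of poly I:C and 1.24% of combination. Within cluster 7 the ratios were 0.754 and 0.936 for Dcstamp and 0.411 and 0.791 for Lyz1. With every class at the same weight in all libraries, Lyz1 was at 0.190 and 0.320 and Dcstamp at 0.475 and 0.387, while Plet1 no longer passed the 1.5-fold rule (0.775 and 0.207). This weighting does not hold the share of cluster 7 fixed, because the unnamed class pools it with clusters 3 and 20. Cluster 7 gave 350 of 580 unnamed cells in control, 234 of 410 in phenformin, 79 of 394 in poly I:C and 83 of 382 in combination.

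Genes of blood-derived monocytes went both ways. Of 18 tested over all Ptprc-positive cells, 1 was called lower and none higher, and by the 1.5-fold rule 2 were lower (Fn1 and Thbs1) and 2 higher (Sirpb1c and Ms4a4c). Over all genes tested 0.204% were called lower, and by that rule 1.24% were lower and 1.15% higher. The level summed over the list was 5589, 6139, 7772 and 6269 CPM in control, phenformin, poly I:C and combination. Ms4a4c was at 149, 179, 271 and 297 CPM. Thbs1, which encodes the matrix protein thrombospondin 1, fell from 282 and 271 CPM in control and phenformin to 151 and 106 in poly I:C and combination. Plbd1, a lysosomal phospholipase-like protein, fell from 298 and 276 CPM to 156 and 121.5 CPM. Within monocyte or macrophage-like cells Thbs1 was at 574, 494, 204 and 175 CPM, and 5 of 17 monocyte genes tested were 1.5-fold lower in both pairs there, among them Fn1, Thbs1, Ccr2 and Vcan, with none 1.5-fold higher. Ccr2, the receptor by which monocytes leave the marrow, was at 148, 90.9, 30.6 and 47.2 CPM in that class. The class held different clusters by treatment: cluster 5 (led by Ccl24, Ly6i and Chil3) made up 15.6%, 22.1%, 13.5% and 5.75% of cells in control, phenformin, poly I:C and combination, whereas cluster 2 was larger with poly I:C, as given above. For the poly I:C effect in monocyte or macrophage-like cells, edgeR's quasi-likelihood test called 444 of 5384 genes (8.25%), 158 higher (2.93%) and 286 lower (5.31%), but 0 with TMM scaling, 0 without control and 0 without phenformin, and 782 without poly I:C; 1319 had an unadjusted p under 0.05. By the 1.5-fold rule 40 were higher (0.743%) and 76 lower (1.41%).

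**Figure D3:**
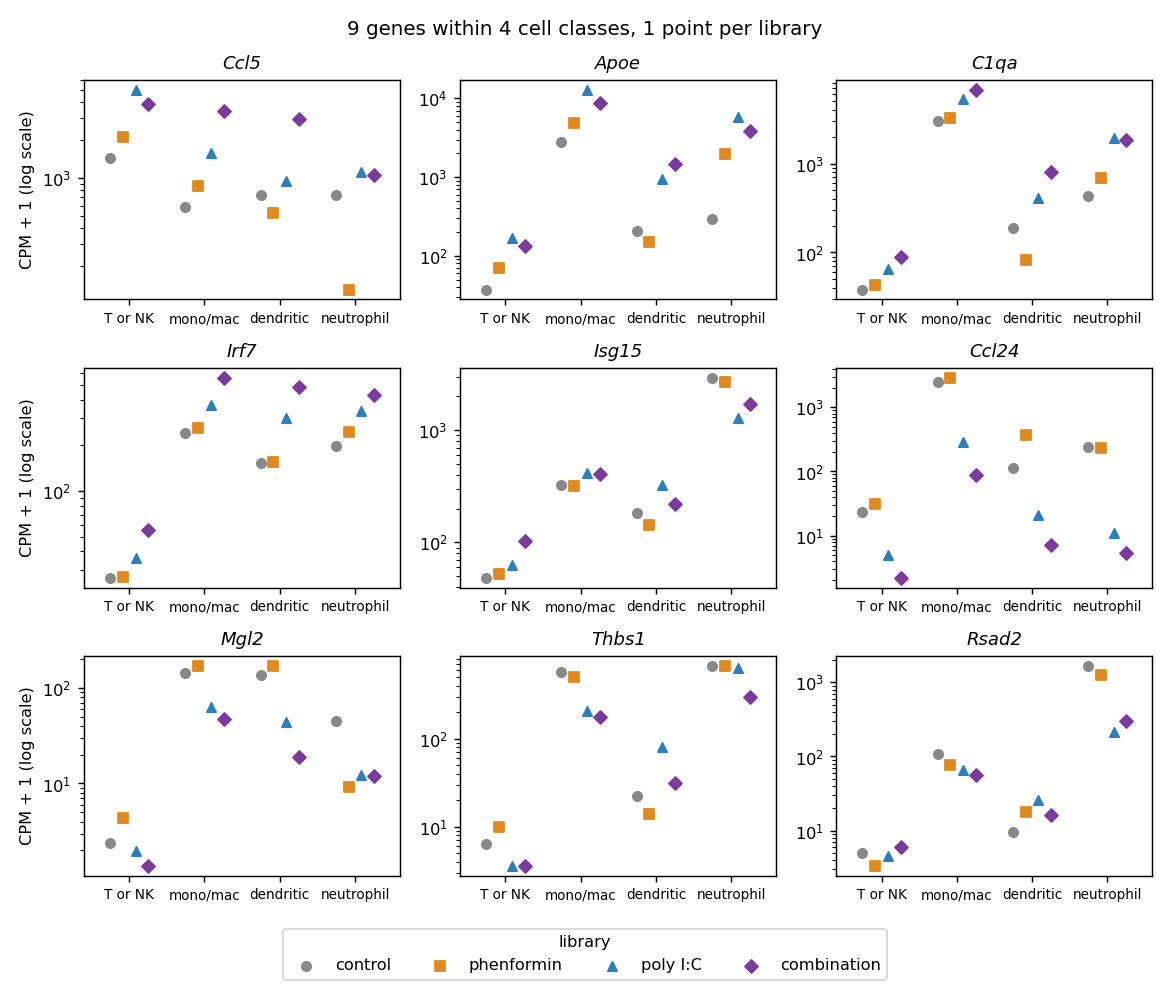
CPM + 1 (log axis) of 9 genes within T or NK-like, monocyte or macrophage-like (mono/mac), dendritic-like and neutrophil-like cells, 1 point per library. Ccl5 and C1qa lie higher in poly I:C than in control in all 4 classes; Isg15 is lower with poly I:C in neutrophil-like cells and higher in the other 3.

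Of 43 type I interferon-stimulated genes tested over all Ptprc-positive cells, 2 were 1.5-fold higher and 2 lower in both pairs. Over all genes tested the shares were 1.15% higher and 1.24% lower. Irf7, the interferon regulatory factor that amplifies type I interferon, rose from 134 CPM in control to 252 in poly I:C and from 162 in phenformin to 347 in combination (1.87-fold and 2.14-fold, adjusted p = 0.046, edgeR's quasi-likelihood test). It was the 1 called gene of these 43, against 0.354% called over all genes tested. Ifi44 was 1.58-fold and 1.75-fold higher, while Rsad2, the antiviral enzyme viperin, was at 70.5, 56.7, 43.6 and 37.8 CPM in control, phenformin, poly I:C and combination, or 0.618 and 0.667 of its saline levels (adjusted p = 0.100, edgeR's quasi-likelihood test). Cmpk2, which lies beside it in the genome, was also 1.5-fold lower in both pairs. Isg15, a ubiquitin-like modifier, was at 257, 241, 314 and 314 CPM, a ratio of 1.22 and 1.30 (adjusted p = 0.326, edgeR's quasi-likelihood test). The medians of the list were 0.12 and 0.20 on the log2 scale. The interferon-induced chemokine gene Cxcl9 was 2.04-fold higher without and 0.847-fold with phenformin, and Cxcl10 stood at 68.2, 76.2, 65.4 and 83.5 CPM. The sensors Tlr3 (4.93, 4.68, 5.71 and 5.56 CPM) had ratios of 1.16 and 1.19 and Ifih1 (40.5, 40.5, 42.7 and 39.3 CPM) of 1.05 and 0.969. In all, 0 of 19 genes of double-stranded RNA sensing were called or past the 1.5-fold rule. At the shares given for all genes tested, a list of that size can hold none.

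Rsad2, Ifit1 and Isg15, whose ratios differed in direction, and Saa3 each hold the core of the interferon-stimulated response element, a pair of GAAA with any 2 bases between, on either strand, just before the transcription start. The 150 bases before the start, from RefSeq (GRCm38.p6), are shown with the matches in capitals, because these promoters set the response element beside the measured directions.
Isg15, chr4:156200819-156200968, minus strand: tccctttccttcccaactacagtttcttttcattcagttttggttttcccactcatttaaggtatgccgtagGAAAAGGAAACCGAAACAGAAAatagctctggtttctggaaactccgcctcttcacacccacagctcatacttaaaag
Ifit1, chr19:34640739-34640888, plus strand: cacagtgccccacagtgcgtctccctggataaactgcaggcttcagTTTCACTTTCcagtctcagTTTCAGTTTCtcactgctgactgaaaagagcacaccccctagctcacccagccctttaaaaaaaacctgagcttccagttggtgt
Rsad2, chr12:26456453-26456602, minus strand: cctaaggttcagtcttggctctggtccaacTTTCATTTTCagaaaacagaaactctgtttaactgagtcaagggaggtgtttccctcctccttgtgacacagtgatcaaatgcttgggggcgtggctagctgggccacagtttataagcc
Saa3, chr7:46715677-46715826, minus strand: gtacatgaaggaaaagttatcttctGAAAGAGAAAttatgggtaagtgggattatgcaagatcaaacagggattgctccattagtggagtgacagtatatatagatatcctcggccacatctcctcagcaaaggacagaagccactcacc
No match lay in the promoter windows of Irf7, the called gene of the list, or Cxcl9. The match begins 78 bases before the start in Isg15, where 3 matches overlap, 104 in Ifit1, 120 in Rsad2 and 125 in Saa3. Ifit1 stood at 21.9, 15.6, 11.2 and 15.4 CPM in control, phenformin, poly I:C and combination. Over windows of 250 bases before to 50 after the start, 8 of the 91 promoters matched for the genes higher in both pairs held the core (8.79%), as did 3 of 98 for the lower genes (3.06%) and 1131 of all 32851 promoters of the table (3.44%). The 8 include Saa3 and the paired receptor genes Pilra, Pilrb1 and Pilrb2, and the 3 include Rsad2. Promoters were at hand for 80 of the 107 higher and 83 of the 116 lower genes, and not for Ccl5, C1qa or Col1a1. These shares were not tested. An NF-kB motif, GGGA then any base then TTTCC on either strand, was in 0 of both sets and in 0.411% of all promoters.

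By cell class, type I interferon-stimulated genes differed in direction. In dendritic-like cells 8 of 29 tested were 1.5-fold higher in both pairs and none lower, against 1.45% higher over all 5500 genes tested there; Irf7 was at 153, 155, 301 and 480 CPM in control, phenformin, poly I:C and combination, and Ifi27l2a was 1.87-fold and 2.22-fold higher. There 2 of the 29 were called, against 0.436% over all genes of the class, and 2 passed the 1.5-fold limits in opposite directions. The class pools 2 clusters whose balance differed by library. Cluster 4 (led by Klk1, Siglech and Ccr9) held 188, 172, 155 and 180 cells in control, phenformin, poly I:C and combination. Cluster 18 (led by Ccl22 and Fscn1) held 225, 190, 135 and 124. The part of this makeup in the ratios was not tested. In T or NK-like cells 2 of 21 were 1.5-fold higher in both pairs and none lower, against 0.411% higher over all genes of the class; 8 were called higher, against 2.32%. Among the called genes were Isg20, an exonuclease for single-stranded RNA (1.98-fold and 1.93-fold), and Isg15 (1.29-fold and 1.98-fold). In monocyte or macrophage-like cells 3 of 32 were 1.5-fold higher in both pairs, among them Bst2 (1.51-fold and 1.73-fold), and none lower, against 0.743% and 1.41% over all genes of the class. There 6 were called higher and 3 lower, among the latter Rsad2 (0.596 and 0.730), against 2.93% and 5.31%, and 0 genes of the class were called with TMM scaling. In neutrophil-like cells 15 of 36 were 1.5-fold lower in both pairs, against 6.29% of the 4580 genes tested there, and 2 were higher (Irf7 and Ifi27l2a). The median log2 ratios of the list in neutrophil-like cells were −0.92 and −0.43, with 0.10 and 0.14 over all genes of that class.

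**Figure D4:**
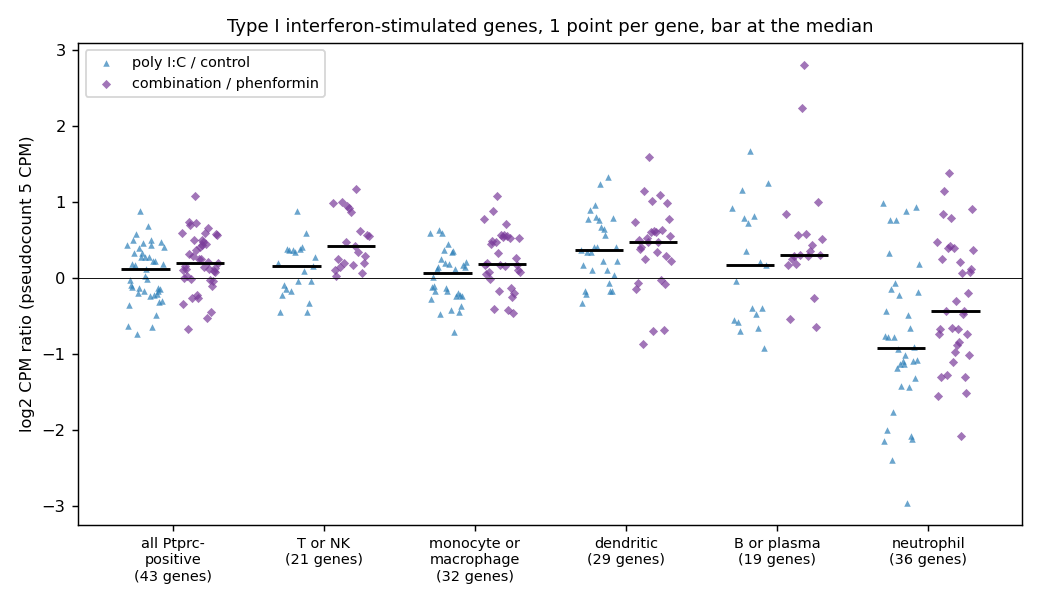
Log2 CPM ratio of each type I interferon-stimulated gene tested in a class, 1 point per gene, for poly I:C over control (triangles) and combination over phenformin (diamonds), with a bar at the median. The medians are above 0 in every class except neutrophil-like cells, where they are −0.92 and −0.43.

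Neutrophil-like cells were few, with 236, 168, 161 and 252 cells and at most 909155 UMIs per library. Rsad2 there was at 1670 CPM in control, 1270 in phenformin, 211 in poly I:C and 298 in combination, and Isg15 at 2930, 2693, 1294 and 1707 CPM. Il1rn, the interleukin 1 receptor antagonist, was at 2484, 2597, 605 and 542 CPM, and Nfkbiz, an atypical IkB protein, at 1474, 1298, 397 and 503 CPM. Of 25 NF-kB and cytokine genes 13 were called lower and none higher, of 18 heat shock and immediate early genes 8 were called lower, and 6 of 16 RNA sensing genes were called lower (Ifih1 at 0.247 and 0.367). In the other direction 11 of 35 nuclear genes of complex I, the target of phenformin, were called higher, such as Ndufc2 (2.45-fold and 2.51-fold) and Ndufv3 (3.08-fold and 1.73-fold). Testing the poly I:C effect in neutrophil-like cells, edgeR's quasi-likelihood test called 767 genes (16.7%), 410 higher (8.95%) and 357 lower (7.79%), and the 1.5-fold rule took 322 higher (7.03%) and 288 lower (6.29%). The macrophage gene C1qa was at 432, 679, 1940 and 1842 CPM in these cells, 4.49-fold and 2.71-fold higher with poly I:C, and Apoe at 291, 1961, 5785 and 3850 CPM; the part of macrophage RNA in the values of this class was not tested. Leaving out poly I:C gave 127 calls, leaving out combination 247, leaving out phenformin 362 and leaving out control 483, against 767.

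A few NF-kB-linked genes were lower over all Ptprc-positive cells. Cd83, a surface protein of mature dendritic cells, fell from 90.7 CPM in control and 83.2 in phenformin to 49.1 in poly I:C and 38.9 in combination (adjusted p = 0.0448, edgeR's quasi-likelihood test). Tnip3, an inhibitor of NF-kB signalling, fell from 30.8 and 27.1 CPM to 11.6 and 10.7 CPM. The NF-kB subunit gene Nfkb1 was at 331, 276, 179 and 181 CPM in control, phenformin, poly I:C and combination (adjusted p = 0.0901, edgeR's quasi-likelihood test). Of 28 NF-kB and cytokine genes tested, 1 was called lower and none higher. In both pairs 2 were 1.5-fold lower (Nfkb1 and Cd83) and 1, the cytokine gene Il18, was 1.5-fold higher. Over all genes tested 0.204% were called lower, and 1.24% were 1.5-fold lower and 1.15% higher in both pairs. Cd83 was at 113, 94.2, 55.1 and 50.7 CPM within monocyte or macrophage-like cells and showed ratios of 0.770 and 0.630 within dendritic-like cells.

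Summed over 12 markers of dendritic cells the level was 725 CPM in control, 738 in phenformin, 430 in poly I:C and 426 in combination. In both pairs 8 markers were 1.5-fold lower and none higher, against 1.24% and 1.15% of all genes tested, and none was at 0. The 12 include Plet1 (165, 230.5, 93.3 and 33.6 CPM), a ranked gene that also leads the unnamed cluster 7. They also include Ccr7, which is on the list of naive and recirculating T cell genes as well. Cd209a, the marker lectin of monocyte-derived and type 2 dendritic cells, fell from 18.8 and 14.9 CPM to 1.43 and 2.33 CPM (adjusted p = 0.0179, edgeR's quasi-likelihood test), and Itgae, the integrin of migratory and type 1 dendritic cells, fell to 0.361 and 0.450. Flt3, the growth factor receptor of the lineage, was at 15.1, 12.3, 5.66 and 7.09 CPM, and Ccr7, which guides cells to lymph nodes, at 253, 235, 157 and 152 CPM. Dendritic-like cells made up 8.07% of control (95% interval 7.34 to 8.85), 7.70% of phenformin (6.96 to 8.50), 5.43% of poly I:C (4.83 to 6.07) and 4.54% of combination (4.05 to 5.06). Within the class Cd209a was at 151, 128, 15.7 and 34.9 CPM and Ccl22 at 380, 570, 343 and 250 CPM, so Ccl22 was at 0.903 of control and 0.439 of phenformin there. The neutrophil genes S100a8 (11.4, 23.7, 216 and 149 CPM) and S100a9 led the higher genes of the class, beside Apoe; the part of RNA from other cells was not tested. EdgeR's quasi-likelihood test of the poly I:C effect in dendritic-like cells called 24 of 5500 genes (0.436%), 15 higher (0.273%) and 9 lower (0.164%), and 374 with TMM scaling. The 1.5-fold rule took 80 higher (1.45%) and 69 lower (1.25%). Leaving out 1 library gave 9 calls without control, 5 without phenformin, 351 without poly I:C and 106 without combination.

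In T or NK-like cells 3 of 18 cytotoxic effector genes tested were 1.5-fold higher in both pairs (Gzmf, Ccl5 and Gzmk) and none lower, against 0.411% and 0.86% of all genes of the class. By edgeR's quasi-likelihood test, whose p-values are too small in this class, 10 were called higher and 1 lower (Tnfsf10), against 2.32% and 7.48%. Gzmb, a granzyme, was at 574, 857, 1122 and 1121 CPM in control, phenformin, poly I:C and combination, Nkg7, a granule protein, at 1124, 1323, 1937 and 1844 CPM, and Gzmk at 9.92, 19.9, 29.5 and 36.2 CPM. The list's median log2 ratios were 0.44 and 0.36, against −0.12 and −0.02 over the 5350 genes of the class. Of 12 regulatory T cell genes 2 were 1.5-fold lower in both pairs (Il2ra and Foxp3) and none higher, and 7 were called lower and none higher by the same test. Foxp3, the defining transcription factor, was at 60.5, 59.9, 22.9 and 33.3 CPM and Il2ra, the interleukin 2 receptor alpha chain, at 276, 241, 136 and 128 CPM. Il1rl1, the receptor of interleukin 33, was at 84.1, 88.4, 29.3 and 46.0 CPM, and the NF-kB subunit gene Rel at 224, 221, 124 and 119 CPM. Ly6c2, carried by effector T cells, was 2.12-fold and 1.79-fold higher.

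The makeup of the class differed too. Cluster 10 (led by Cxcr6, Cd3g, Nkg7, Pdcd1 and Gzmf) made up 8.54% of all Ptprc-positive cells in control, 9.85% in phenformin, 18.4% in poly I:C and 17.8% in combination. Cluster 11 (led by Tnfrsf4, Il2ra and Foxp3) made up 5.69%, 5.92%, 2.49% and 4.598%. Cluster 12 (led by Lef1 and Tcf7) was at 3.61% in poly I:C and 8.57% in combination, against 5.98% and 5.34% in control and phenformin. For the poly I:C effect in T or NK-like cells, edgeR's quasi-likelihood test called 524 genes (9.79%), 124 higher (2.32%) and 400 lower (7.48%), and 112 with TMM scaling, of which 50 were higher and 62 lower. The fit pooled the spread over all genes of this class, hence the small p-values. The 1.5-fold rule took 22 higher (0.411%) and 46 lower genes (0.86%). Leaving out 1 library gave 1946 calls without phenformin, 112 without poly I:C and 148 without combination.

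**Figure D5:**
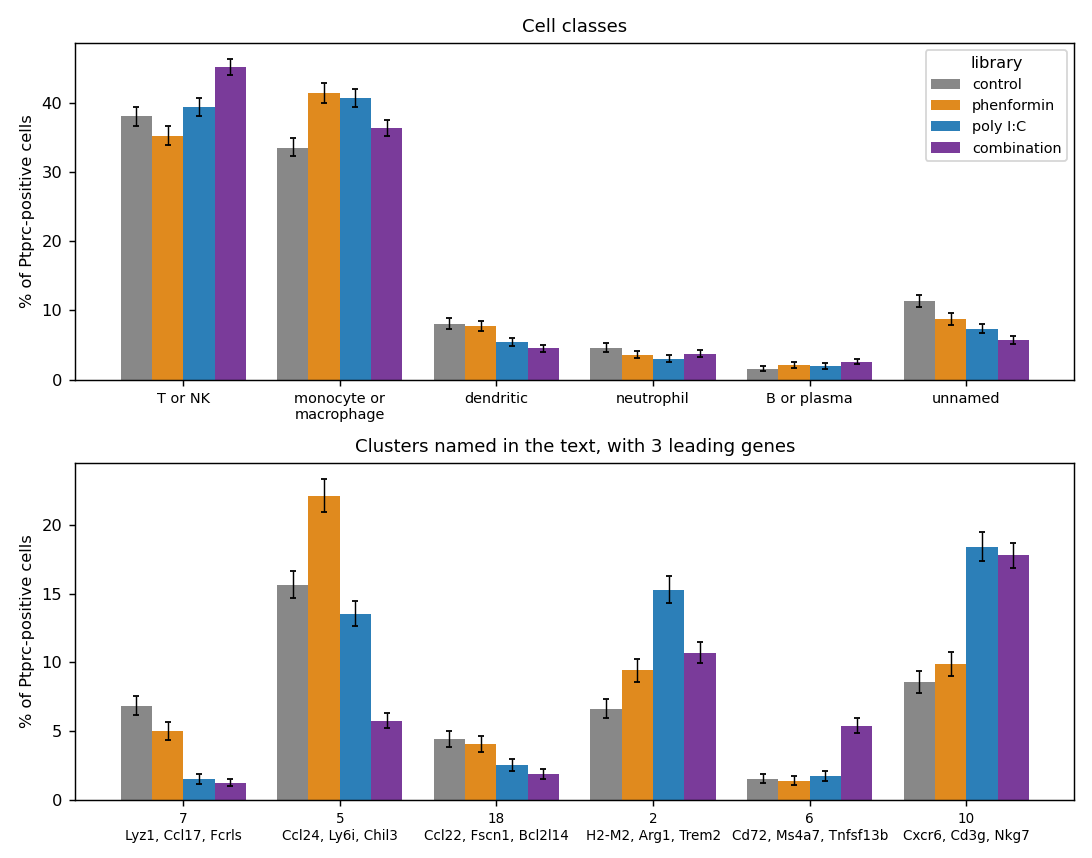
Share of Ptprc-positive cells (bars, with exact binomial 95% intervals for counting error) in each library, for the named cell classes and the unnamed cells (top) and for 6 clusters labelled by 3 of their leading genes (bottom). Dendritic-like cells and clusters 7 and 18 are lower, and clusters 2 and 10 higher, in both poly I:C-treated libraries than in both saline libraries.

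T or NK-like cells made up 38.1%, 35.3%, 39.5% and 45.3% of Ptprc-positive cells in control, phenformin, poly I:C and combination, higher in both poly I:C-treated libraries, while monocyte or macrophage-like cells overlapped between the groups (33.6%, 41.5%, 40.8% and 36.4%). Cluster 18, the dendritic-like cells led by Ccl22 and Fscn1, went from 4.40% and 4.04% to 2.53% and 1.85%. Neutrophil-like cells (4.61%, 3.58%, 3.01% and 3.76%) and B or plasma-like cells overlapped. With 2 libraries against 2, the smallest two-sided p of an exact permutation test is 0.3333, which the share of dendritic-like cells and that of T or NK-like cells reached. The enrichment for CD45 and the Ptprc limit can set shares.

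B or plasma-like cells were few, with 79, 99, 103 and 170 cells in control, phenformin, poly I:C and combination. Ly6d, a surface protein of B cells, was at 652, 652, 221 and 198 CPM, and Vpreb3, a protein of B cell receptor assembly, at 118, 107, 34.4 and 46.8 CPM, both lower with poly I:C in each pair. Ccl5 (48.4, 162, 490 and 1174 CPM), Lyz2 (154, 259, 1103 and 1365 CPM) and C1qa (112, 435, 829 and 2040 CPM), which B cells should lack or hold at low levels, were higher, and the part of RNA from other cells was not tested. The Ms4a1 cluster 16 held 52, 78, 30 and 154 cells and the Jchain cluster 19 held 27, 21, 73 and 16, so the class was made mostly of cluster 19 in poly I:C alone. EdgeR's quasi-likelihood test of the poly I:C effect in B or plasma-like cells called 91 genes (1.7%), 77 higher (1.44%) and 14 lower (0.262%), with 0 left without control and 0 without phenformin. The 1.5-fold rule took 152 higher (2.85%) and 98 lower (1.84%).

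Of 24 matrix genes tested, 4 were 1.5-fold higher in both pairs (Mmp3, Mmp8, Sparc and Timp2) and 4 lower (Fn1, Col6a3, Thbs1 and Mmp25), with 1 called each way. Over all genes tested 1.15% were higher and 1.24% lower by that rule, and 0.15% were called higher and 0.204% lower. Among the collagen genes, Col1a1, the chain of type I collagen, rose from 15.1 and 10.97 CPM in control and phenformin to 84.2 and 31.3 CPM in poly I:C and combination, and Col1a2 rose 4.04-fold and 2.40-fold. Mmp3, stromelysin, rose from 0.942 and 0.136 CPM to 19.98 and 2.85 CPM (adjusted p = 0.00556, edgeR's quasi-likelihood test). Fibroblast-like cells numbered 10, 5, 23 and 17 in control, phenformin, poly I:C and combination. The summed level of 7 fibroblast markers was 59.5, 42.0, 257 and 95.4 CPM, with 5 of the 7 1.5-fold higher in both pairs and none at 0. The 7 include Col1a1, Col1a2 and Col3a1, which are ranked genes, so the sum is not separate from them. With the same cell mix in all libraries Col1a1 was 3.31-fold and 1.76-fold higher, while Col1a2 (2.40 and 1.46) and Col3a1 (2.74 and 1.22) no longer passed the 1.5-fold rule. Saa3, an acute phase protein of macrophages and stroma, was at 9.13, 31.0, 50.1 and 73.8 CPM. Ddit3, the stress transcription factor CHOP, was at 24.3, 23.3, 44.7 and 44.7 CPM, 1.84-fold and 1.92-fold higher. Its ratios lay between 1.68 and 2.31 in T or NK-like, monocyte or macrophage-like, dendritic-like and neutrophil-like cells. Of 14 stress response genes none was called, and 3 (Ddit3, Gdf15 and Nupr1) were 1.5-fold higher and none lower in both pairs. The shares over all genes tested are those given above for the matrix genes.

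For some genes the direction of the ratio differed between the pairs. Inhba, a subunit of activin, was 2.56-fold higher without and at 0.474 with phenformin, and Nos2, the inducible nitric oxide synthase, was at 73.4, 96.7, 127 and 55.1 CPM in control, phenformin, poly I:C and combination. Lcn2, lipocalin 2, was at 70.1, 23.2, 30.8 and 82.6 CPM. The mast cell protease genes Mcpt1 (49.7, 0.117, 2.74 and 48.5 CPM) and Mcpt2 (32.7, 0.175, 1.70 and 44.5 CPM) were high in control and combination and low in the other libraries; mast or basophil-like cells numbered 19, 8, 6 and 11 in control, phenformin, poly I:C and combination. The keratin gene Krt8 was at 68.0, 20.2, 42.8 and 50.3 CPM, while of 9 tumour epithelial markers 2 were 1.5-fold higher and 1 lower in both pairs; tumour epithelial-like cells numbered 109, 37, 80 and 92. The difference between the pairs leaves no residual degree of freedom and was not tested.

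Several lists that often respond to treatment held no called gene and none past the 1.5-fold rule in both pairs: 28 proliferation genes (median log2 ratio −0.38 without and 0.23 with phenformin), 20 heat shock and immediate early genes (−0.21 and −0.01), 25 genes of glycolysis and hypoxia (0.02 and −0.22), 37 nuclear genes of complex I (0.03 and −0.04) and 20 MHC class I genes (0.23 and 0.17). The same was so for 27 interferon-gamma-inducible genes, such as Gbp2 (366, 367, 328 and 255 CPM in control, phenformin, poly I:C and combination), and for 14 regulatory T cell genes over all Ptprc-positive cells. Of 18 T cell inhibitory receptor genes, Btla alone was 1.5-fold lower in both pairs and none was higher. Over all genes tested 0.354% were called, 1.15% were 1.5-fold higher and 1.24% lower in both pairs. At those shares, lists of these sizes can hold none without differing from the other genes.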

How the data were processed

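Droplet-based 3' RNA sequencing was made on CD45-enriched cells of 4 tumour samples, which were CD31- EpCam- CD45+ for the most part per the labels' protocols. The authors deposited UMI counts for 27998 features per cell barcode, not normalized. Per the submitters' processing notes the tool was Cell Ranger 3.1.0, with mm10 and GRCm38 as builds; later filters are not stated there. Positions follow GENCODE vM21 (GRCm38) and promoters RefSeq (GRCm38.p6).

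Cells were filtered as stated above and UMIs were summed per library and divided by their total (CPM), with no further scaling. Ratios have exact conditional 95% intervals that cover counting error only, since UMIs of 1 library are not replicates. The test was edgeR 4.0.16 (glmQLFit and glmQLFTest, R 4.3.3; terms for phenformin and poly I:C) with Benjamini-Hochberg adjustment over genes with a mean of at least 5 CPM, or 20 CPM and 40 UMIs within a class; it was tested on simulated data. Where nothing says that samples came from separate animals, p-values measure the spread between these samples. Cells were clustered with scanpy 1.11.5 and leidenalg 0.10.2 (2000 variable genes without mitochondrial, ribosomal and response genes, 30 components, 15 neighbours, resolution 1), giving classes named "-like" from at least 3 markers that were 2-fold higher and found in 5% of cells. No doublets were removed. Named genes are the 15 highest and 15 lowest by the smaller log2 ratio (pseudocount 5 CPM, mean of at least 20 CPM), up to 4 members of each list, and the 5 highest and 5 lowest per class (50 CPM and 100 UMIs); others were chosen after their values were seen, and a few genes are not reported here. The members, lists, markers and tests were chosen with earlier results of these data known. Alternatives changed scaling, gene and cell filters, the Ptprc limit, depth per cell, the cell mix, mixed cells, clustering, the covariate, the test (DESeq2 1.42.0) and the libraries used.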

Additional observations from a re-analysis of the deposited data

Results flagged for a closer look

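Some genes were at least 1.5-fold different in opposite directions in the pairs. Each ratio sets a single library against another, and the difference between the pairs was not tested. As the log2 ratio with phenformin minus that without, with 5 CPM added to each value, the difference was −2.14 for Inhba, −1.51 for Nos2 and −1.47 for F13a1, which were higher without and lower with phenformin. It was 2.71 for Lcn2, 5.75 for Mcpt2 and 6.21 for Mcpt1, which were lower without and higher with phenformin. Mcpt1 and Mcpt2 UMIs come from few cells, with 6 to 19 mast or basophil-like cells per library.

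In both pairs poly I:C-treated libraries had more Isg15 in dendritic-like cells and less in neutrophil-like cells, and the log2 change differed by 1.62 between these classes, untested. Thbs1 was higher in dendritic-like cells and lower in monocyte or macrophage-like cells in both pairs, a difference of 2.79, untested as well. Thbs1 stood at only 12.9 to 78.7 CPM in dendritic-like cells.

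Cells without a Ptprc UMI were outside the comparisons above. In them 14 of the 30 ranked genes were 1.5-fold different in the same direction in both pairs, 7 higher and 7 lower. Those that did not keep the rule include C1qa, C1qc, Irf7, Acp5, Thbs1, Cd83, Col1a1, Col1a2 and Col3a1. The share of all genes past the rule in these cells was not computed. Saa3 was at 11.1, 11.2, 196 and 62.8 CPM there in control, phenformin, poly I:C and combination.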

How the results depend on the processing

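Of the poly I:C effect over Ptprc-positive cells, no call changed sign under any alternative, but the 33 calls depend on scaling, filters and single libraries, and the causes were not tested. They became 0 with TMM scaling, 0 with DESeq2 size factors and 0 without the phenformin term (1386, 1401 and 2107 genes had an unadjusted p under 0.05 in edgeR's quasi-likelihood test), 15 with no filter on low genes, 92 at a mean of at least 20 CPM, 240 with the DESeq2 test, 15 with 500 genes and 10% mitochondrial UMIs, 660 without the Ptprc limit, 11 with at least 2 Ptprc UMIs, 82 without mixed cells, 216 with cells thinned to 1000 UMIs and 738 with a fixed cell mix. Leaving out 1 library gave 0 to 27. For the poly I:C effect in T or NK-like cells (524) the counts were 112 with TMM scaling, 313 without mixed cells and 112 to 1946 leaving out 1 library. For the poly I:C effect in monocyte or macrophage-like cells (444) they were 0 with TMM scaling, 185 without mixed cells, 129 at a clustering resolution of 0.5 and 0 to 782. Calls of the poly I:C effect in dendritic-like cells (24) were 374 with TMM scaling, 59 without the phenformin term, 125 with at least 2 Ptprc UMIs, 60 without mixed cells, 7 at resolution 0.5 and 5 to 351. Calls of the poly I:C effect in B or plasma-like cells (91) were 155 with TMM scaling, 1 without the phenformin term, 199 with at least 2 Ptprc UMIs, 157 at resolution 0.5 and 0 to 114. For the poly I:C effect in neutrophil-like cells (767) they were 482 without the phenformin term, 457 with at least 2 Ptprc UMIs and 127 to 483. Among genes at least 1.5-fold in both pairs (223) the count was 489 with no filter, 108 at 20 CPM, 40 at 2-fold, and 592 to 997 where leaving out a library left 1 pair. Genes moving opposite ways in the 2 pairs (43) numbered 18 with a fixed cell mix. The higher share of the 1.5-fold genes was 48.0%, and 60.3% with TMM scaling, 61.2% with DESeq2 size factors, 32.0% with thinned cells, 34.3% with each cell weighted alike and 38.7% with a fixed cell mix. Of the 30 ranked genes, 27 kept the rule with a fixed cell mix and 29 or 30 did under the other alternatives over Ptprc-positive cells at 1.5-fold. For the genes moving opposite ways the alternatives were chosen after seeing the data. Libraries were matched on phenformin in the pairs and by the phenformin term; replicate numbers follow accession order and pair nothing.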
